A study of Gallus gallus with 41 samples.

Results

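The 6 cells of embryonic day 3 (E3) were set against the 2 cycling cells of day 5 (E5), which makes 8 of the 41 single cells in the series. The E5 pair, replicates 4 and 5, was chosen by measured values: they are the E5 cells in which most cell cycle genes were detected. All 41 cells were drawn one by one from dissociated embryonic chick retinas, 1 cell to an Affymetrix chicken array, and no genotype, treatment or culture separates the groups. No embryo is named, so the cells of an age count as 1 sample, every value below describes these cells alone, and no test was made. Beside them stand the 3 other E5 cells, 3 cells of E4, 10 of E6 and 1 of E7, among others, which entered no call. One label of E6 replicate 1 gives E5 where its title gives E6, and it is counted with E6 by its title, while the series text counts fewer cells than are listed.

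A retinal progenitor cell divides in the neuroepithelium of the optic cup and passes through S phase and mitosis while it keeps an intermediate filament network of nestin and vimentin. Early in development such cells mostly make more progenitors, and later a growing share of their daughters leaves the cycle to become neurons. Notch signalling, with HES5 as a target, holds progenitors back from differentiation, D-type cyclins drive them through G1, and retinoic acid enzymes mark dorsal and ventral retina.

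Signals are log2 values of the deposited table, floored at its median (log2 5.0), so 5.0 means at the floor. A probe set counted as detected in a cell when it lay at or above the 80th percentile of the chicken probe sets on that array. That threshold lay between 5.76 and 7.09 on the 6 E3 arrays and at 5.65 and 5.62 on the arrays of E5 replicates 4 and 5. The 3′ signal of ACTB, cytoskeletal actin, exceeded its 5′ signal by 3.30 to 9.10 log2 units in the E3 cells and by 1.22 and 1.96 in the cycling E5 cells. For GAPDH the excess was 0.211 to 1.77 at E3 and 0.135 and 0.0913 in the cycling E5 cells. The part of these array differences in any result was not tested.

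The 3 genes taken as marks of a dividing progenitor came with the choice of this comparison and were detected in all 8 cells. NES, the progenitor filament nestin, read 14.35, 15.74, 15.28, 16.27, 14.90 and 11.08 in E3 replicates 1 to 6 and 14.93 and 14.68 in E5 replicates 4 and 5. PBK, a mitotic kinase, read 12.12, 13.22, 13.65, 15.69, 13.05 and 14.10 at E3 and 14.46 and 14.05 at E5. CKS1B, a subunit of cyclin-dependent kinase complexes, read 14.05, 14.63, 13.95, 16.11, 14.33 and 15.93 at E3 and 13.04 and 14.02 at E5. All 3 were high on both sides and their ranges overlapped. NES is not particular to these cells, since it also stood at 15.44 and 15.15 in E5 replicates 1 and 2, while PBK lay at 5.0 to 6.04 in the 3 other E5 cells. PBK and CKS1B are mitosis genes and so belong to the choice of the E5 cells. Their levels in the E5 cells are a description and show nothing more.

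Of 113 genes for DNA replication and mitosis, 65 and 63 were detected in E5 replicates 4 and 5, against 23, 20 and 15 in E5 replicates 1 to 3. The rule's threshold thus falls between the 63 of replicate 5 and the 23 of replicate 1. These counts chose the E5 cells and show nothing more about them. Among the E3 cells, replicates 1 to 6 had 58, 55, 64, 47, 30 and 68 of the 113. E3 replicate 5 thus lay nearer to the non-cycling E5 cells than to the other E3 cells. CCNB1, the mitotic cyclin B1, was at the floor there and at 14.79 to 17.05 in the other 5 E3 cells. CCNA2, cyclin A2, chosen after its values were seen, was at 5.93 there and at 12.93 to 16.14 in the others. Both are cell cycle genes and are not support beyond the count. Other such genes were high in replicate 5, with PBK at 13.05 and CKS1B at 14.33. Of 21 G1 cyclin and inhibitor genes 11 were detected there, against 5 to 8 in the other E3 cells.

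**Figure D1:**
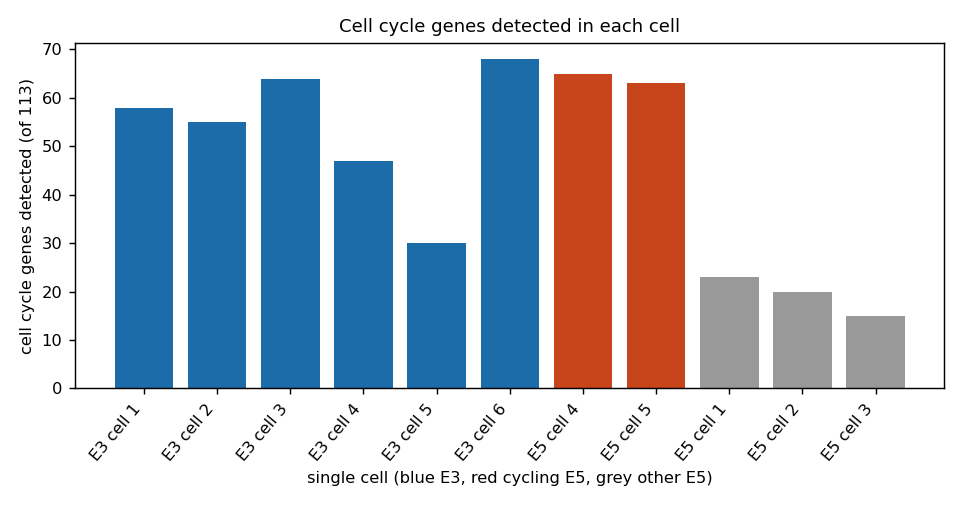
Number of detected cell cycle genes, of 113 with a probe set, in each E3 cell (blue), the 2 cycling E5 cells (red) and the 3 other E5 cells (grey). The cycling E5 cells stand at 65 and 63, 5 of the E3 cells between 47 and 68, and E3 replicate 5 at 30, next to the 15 to 23 of the other E5 cells.

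The E3 cells were also uneven in markers of cell type. PAX6, the eye field transcription factor, read 14.33 and 14.10 in E3 replicates 2 and 3, 9.58 in replicate 4, 6.58 in replicate 6 and 5.0 in replicates 1 and 5, against 13.74 and 13.41 in the cycling E5 cells. It read 13.59 to 15.40 in the 3 E4 cells and 13.99 in the E7 cell. PAX6 is not particular to dividing cells, since it read 14.90 to 15.94 in the 3 other E5 cells. It was also detected in 10 of 10 E6 cells. Only 2 of the 6 E3 cells therefore reached the PAX6 level of the cycling E5 cells. Other progenitor markers followed PAX6 only in part. Among the E3 cells LHX2 was highest in the same 2 replicates, at 13.68 in replicate 3 and 10.10 in replicate 2. It read 7.89 in replicate 4 and at most 5.60 in replicates 1, 5 and 6. Unlike PAX6 it was low at E5, at 8.19 and 7.49. SIX3 and SIX6 stayed at or under 7.99 in all 8 cells, and SOX2 at or under 6.82. At that low level SIX6 still passed the detection threshold in all 6 E3 and both E5 cells.

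Globin transcripts filled E3 replicates 4 and 6. HBAD, an alpha-type globin, read 17.01 and 16.93 there, 11.79 in replicate 2 and 5.0 to 5.98 in the other 3 E3 cells, and 5.0 and 6.14 in the cycling E5 cells. HBBR, a beta-type globin, read 16.27 and 16.44 in replicates 4 and 6, 12.69 in replicate 1 and 5.0 to 5.54 in the other 3, against 6.20 and 6.63. Summed over the 5 erythroid markers on the array (of 6 asked), the log2 level ran from 7.55 to 18.28 over the E3 cells and from 8.03 to 8.10 in the cycling E5 cells. In replicate 6 the red cell anion exchanger SLC4A1 was also present (11.38), whereas it was at the floor in replicate 4, and the erythroid regulator HEMGN did not pass 6.57 in any of the 8.

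E3 replicates 1 and 5 carried matrix genes of another kind. COL1A1, the fibrillar collagen of connective tissue, read 14.65 and 14.92 in them and 6.65 to 8.13 in the other 4 E3 cells, and 7.0 and 7.33 in the cycling E5 cells. LAMB1, a laminin chain of basement membranes chosen after its values were seen, read 14.38 and 15.19 in the same pair and 5.0 to 7.16 in the other 4. The partner chain COL1A2 has 8 probe sets that disagree. The one of highest mean read 6.54 and 6.15 in replicates 1 and 5, another read 14.15 and 14.33 there and 5.0 in the other 6 cells, and a further one read 14.20 and 12.08 there and 13.63 in E5 replicate 4. PDGFRA stood at the floor in both, and the mesenchymal factor TWIST1 at 5.95 and 5.0. The 7 vascular, mesenchymal and crest markers summed to 8.80 to 14.93 over the E3 cells and to 8.84 and 9.76 in the cycling E5 cells.

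The 10 retinal progenitor markers on the array (of 12 asked) summed to 11.59 to 17.94 at E3 and to 16.32 and 16.75 in the cycling E5 cells. NES or VIM was the highest of these markers in each of the 8 cells. In E3 replicates 1 and 5, with PAX6 at the floor, NES read 14.35 and 14.90 and VIM 15.07 and 16.18. The sum thus says little about the eye field factors. Some neuronal transcripts were high in E3 replicate 3. NEFM, a neurofilament subunit, read 14.48 and ELAVL4, a neuronal RNA-binding protein, 13.03 there, and both lay at or under 6.50 in the other 7 cells. NEFL, the light neurofilament subunit, read 14.98 in replicate 3, 11.38 in replicate 2 and 13.48 in E5 replicate 5, and 5.04 in E5 replicate 4. STMN2, a microtubule regulator of growing axons, stood at 5.0 to 5.67 in all 8 and at 15.08 to 17.25 in the 3 other E5 cells. In E3 replicate 3, ISL1, GAP43 and THY1 read 6.52, 5.02 and 5.0. Other neuronal genes were high in further cells. TUBB3 read 15.14 in E3 replicate 4 and 13.22 in replicate 3. CRMP1 read 14.49, 14.07 and 13.05 in E3 replicates 1, 3 and 5 and 14.30 in E5 replicate 5. The 8 ganglion cell markers on the array (of 10 asked) summed to 8.10 to 15.96 at E3 and to 8.09 and 13.50 in the cycling E5 cells.

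Marker sums of the remaining cell types were lower. Photoreceptor (3 of 5 on the array), amacrine and horizontal (4 of 5), pigment epithelium (5 of 5), lens (5 of 5) and microglia markers (4 of 4) summed to at most 10.02 in any E3 cell and 8.53 in either cycling E5 cell. CRYAB, a small heat shock protein of lens fibres that is in the lens list but not among these markers, read 14.96 in E3 replicate 3 and at most 7.43 in the other 7 cells. Neurogenic markers (6 of 7) reached 13.02 and 14.43 through HES6, which read 12.96 in E3 replicate 3 and 14.42 in E5 replicate 5. FABP7, a fatty acid binding protein of neural progenitors, was at the floor in all 8 cells while it read 14.43 to 16.84 at E4. The part of globin, collagen or neuronal transcripts in the differences below was not tested, and the counts are given with and without those cells.

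**Figure D2:**
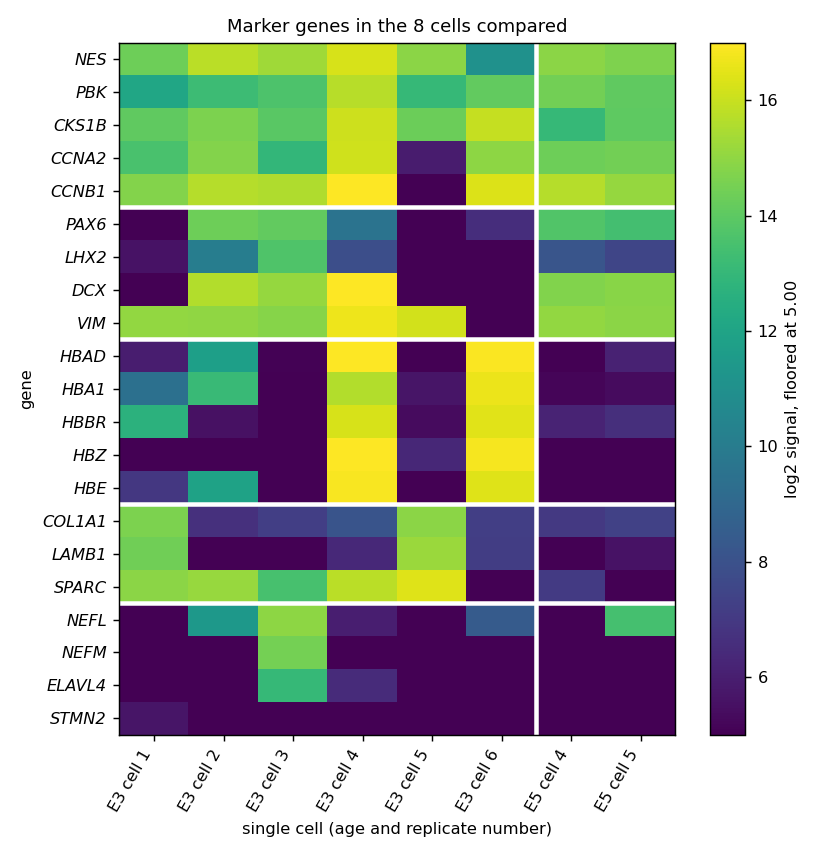
Log2 signal of marker genes (rows) in the 6 E3 and 2 cycling E5 cells (columns), floored at 5.0. NES, PBK and CKS1B are high in all 8, PAX6 is high in E3 replicates 2 and 3 and both E5 cells, globins fill E3 replicates 4 and 6, and COL1A1 and LAMB1 fill E3 replicates 1 and 5.

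A probe set was called where every cell of one side exceeded every cell of the other by at least 1 log2 unit. Of 37693 chicken probe sets, 85 were higher in E3 (0.226%) and 131 were higher in the cycling E5 cells (0.348%). With 1 probe set for each of 13008 named genes, the counts were 53 (0.407%) and 69 (0.53%). The rule asks that 6 cells lie above 2 in the E3 direction and 2 above 6 in the E5 direction. The counts of the 2 directions therefore cannot be set against each other. It does not ask that a gene be absent from the lower side: NDUFB1 was called toward E3 with 11.94 in E5 replicate 4. By detection alone, 47 probe sets were found in 6 of 6 E3 and 0 of 2 cycling E5 cells (0.125%), and 176 in the reverse (0.467%). The 2 rules shared only 31 of the 85 calls toward E3 and 57 of the 131 toward E5. A larger group, 835 probe sets or 2.22% of all, was detected in all 8 cells, and 16684 in none of them.

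The counts depend on the cells. Without the globin-rich E3 replicates 4 and 6 they were 192 and 213, without the COL1A1-rich replicates 1 and 5 they were 359 and 223, and with E3 replicates 2 and 3 alone they were 941 and 451. Without E3 replicate 3, which was high in NEFM, NEFL and ELAVL4, they were 140 and 168. Fewer cells loosen the rule, so such counts can only grow and no call can be lost. Across all chicken probe sets the cycling E5 mean minus the E3 mean had a median of -0.23, and -0.31 with 1 probe set a gene, so list medians are read against -0.31.

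Pairs of E3 cells had Pearson correlations of 0.389 to 0.538 over the 37693 probe sets (15 pairs), and the cycling E5 pair had 0.485. Across the ages the 12 pairs ran from 0.389 to 0.496, within the range of the E3 pairs. The cycling E5 cells correlated at 0.354 to 0.403 with the 3 other cells of their own age. The E3 cells correlated at 0.334 to 0.452 with those 3 cells. The cycling E5 cells correlated at 0.362 to 0.463 with the E4 cells and at 0.465 and 0.478 with the E7 cell. The points share probe affinities and amplification, so these values only order the cells.

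The genes that were low in all E3 cells and high in both cycling E5 cells included regulators of progenitor state. HES5, the Notch target that holds progenitors back from differentiation, read 5.0, 5.0, 5.78, 5.0, 6.02 and 7.08 in E3 replicates 1 to 6 and 13.40 and 13.70 in the cycling E5 cells. Its mean differed by 7.90 log2 units from the E3 mean of 5.65 ± 0.83 (SD over 6 cells), although it passed the detection threshold in 2 of the E3 cells. The other HES5 probe set was at the floor in all E3 cells and read 7.77 and 5.0 at E5, and it was not called. HES5 read 14.85 to 16.75 in the 3 E4 cells and 14.82 in the E7 cell, but was detected in 0 of 10 E6 cells.

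TOX3, a transcription regulator of the high mobility group box family, read 5.0 to 5.63 in the 6 E3 cells and 14.25 and 14.08 in the cycling E5 cells. The groups were 8.45 apart at their nearest values, and a further TOX3 probe set was called as well, with 5.0 to 5.62 at E3 and 13.51 and 13.05 at E5. All 3 other E5 cells were at the floor. The E4 cells read 11.81, 12.74 and 12.01 and the E7 cell 14.35.

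D-type cyclins did not separate the ages. CCND1, cyclin D1, read 6.44, 5.0, 5.59, 15.99, 6.19 and 6.81 in E3 replicates 1 to 6 and 14.30 and 8.12 in the cycling E5 cells. A single E3 cell, the globin-rich replicate 4, held the highest value of all 8. CCND2, cyclin D2, read 11.30, 13.26, 5.75, 6.48, 14.08 and 5.77 at E3 and 13.34 and 14.28 at E5. By that probe set both E5 cells and 3 of 6 E3 cells were high. Another CCND2 probe set read 14.22 and 15.97 in E3 replicates 1 and 4, at most 6.20 in the other 4 and 5.99 and 5.0 at E5. The direction of CCND2 thus depends on the probe set. In the list of G1 cyclins and inhibitors 0 of 21 genes were called. Over all named genes 0.407% were called toward E3 and 0.53% toward E5, so a count of 0 in so short a list says nothing about it.

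LGR4, a receptor for R-spondins that strengthens Wnt signalling, read 6.10, 5.0, 5.08, 6.71, 5.13 and 5.0 at E3 and 14.03 and 14.40 in the cycling E5 cells. It was absent from the 3 other E5 cells (5.0 to 5.50) and read 9.79 to 12.13 at E4 and 13.48 at E7. AEBP2, a cofactor of the Polycomb complex that methylates histone H3, read 5.0 to 5.45 at E3 and 12.15 and 12.50 at E5. Another of its probe sets was called as well. A further one, not called, read 13.99 in E3 replicate 1, at most 5.95 in the other E3 cells and 5.0 in both E5 cells. The direction of AEBP2 in that E3 cell thus depends on the probe set. The remaining AEBP2 probe set was at the floor in every cell compared. KIF20B, a mitotic kinesin outside the rule for named genes and chosen after its values were seen, read 13.92 and 14.10 in E3 replicates 3 and 6, 5.0 in the other 4 and 14.43 and 14.66 at E5. Its groups were only 0.33 apart, so it was not called by this probe set, while another of its probe sets was called toward E5, and as a cell cycle gene it belongs to what selected the E5 cells.

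**Figure D3:**
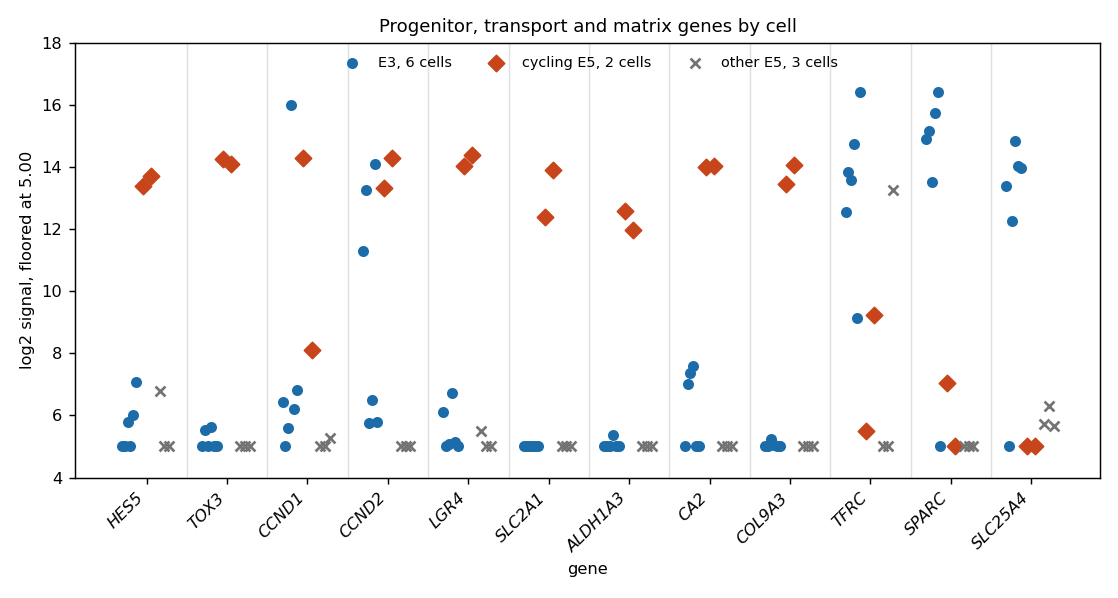
Log2 signal, floored at 5.0, of 12 genes in the 6 E3 cells (blue circles), the 2 cycling E5 cells (red diamonds) and the 3 other E5 cells (grey crosses). Among the cells shown, HES5, TOX3, LGR4, SLC2A1, ALDH1A3, CA2 and COL9A3 are high in both cycling E5 cells alone. The E4 and E7 cells, where several of these genes are high, are not shown. CCND1 and CCND2 overlap, and TFRC, SPARC and SLC25A4 are high in 5 or 6 of the E3 cells.

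Enzymes and carriers were also among the genes high in both cycling E5 cells and low in all E3 cells. ALDH1A3, the retinoic acid enzyme of ventral retina, read 5.0 in 5 E3 cells and 5.36 in replicate 4, against 12.60 and 11.97 in the cycling E5 cells. It was detected in 0 of 3 E4 cells and 0 of 10 E6 cells and read 10.48 at E7. ALDH1A1, the dorsal enzyme, was chosen after its values were seen: it read 13.07 and 13.56 in E3 replicates 2 and 3 and at most 7.24 in the other 4, and was at the floor in both E5 cells. Of 45 genes in the list of axial pattern, ALDH1A3 was the only one called in either direction. Over all named genes the shares called were 0.407% toward E3 and 0.53% toward E5. At such shares few calls can fall in a list of this size, and the count says little about the list.

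SLC2A1, the glucose transporter GLUT1, was at the floor in all 6 E3 cells and read 12.39 and 13.89 in the cycling E5 cells. It was also at the floor in the 3 other E5 cells and read 12.48 to 13.37 at E4 and 14.63 at E7. SLC16A1, a carrier of lactate and pyruvate chosen after its values were seen, did not separate the ages and read 11.90 to 13.66 at E3 and 13.34 and 12.46 at E5. CA2, a carbonic anhydrase that marks Müller glia in the mature retina, read 5.0, 7.02, 7.37, 7.60, 5.0 and 5.0 at E3 and 14 and 14.03 at E5. It passed the detection threshold in 3 of the E3 cells. CA2 was the 1 gene called of 13 in the Müller list, where 0.53% of all named genes were called toward E5. A single call in so short a list says little about the list.

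COL9A3, a chain of collagen IX, read 5.0 to 5.23 at E3 and 13.46 and 14.07 in the cycling E5 cells, though a further COL9A3 probe set read 12.49 in E3 replicate 3 and 12.45 and 13.21 at E5. HMGCS1, an early enzyme of cholesterol synthesis, read 5.0 to 5.41 at E3 and 14.16 and 13.80 at E5. Unlike TOX3 or SLC2A1 it was present in the 3 other E5 cells, at 12.43, 14.93 and 13.68, so among these 11 cells it was low at E3 alone. NANS, the sialic acid synthase, read 5.0 in 4 E3 cells, 5.43 in replicate 4 and 6.99 in replicate 6, against 13.76 and 13.98. Each of 2 further NANS probe sets was called in the same direction.

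BLOC1S5, a subunit of a complex that builds lysosome-related organelles, was at the floor in all E3 cells and read 14.07 and 13.89 at E5, the widest gap of the named genes in this direction (8.89). RPAP3, an RNA polymerase assembly factor, and RABGAP1, a regulator of Rab GTPases, were at the floor in all 6 E3 cells too, with 13.67 and 13.27 and with 12.98 and 13.76 in the cycling E5 cells. ERI1, which trims histone mRNA ends, EXOSC9, a subunit of the RNA exosome, and NXT2, an mRNA export factor, read at most 5.91, 6.62 and 5.69 at E3 and at least 12.78, 13.43 and 13.50 at E5. The other ERI1 probe set was not called. It read 10.85 in E3 replicate 3, at most 6.50 in the other E3 cells and 5.27 and 5.0 at E5. NXT2 has 3 other probe sets, of which 1 read 12.44, 13.93 and 12.93 in E3 replicates 1, 2 and 6 and 5.0 in both E5 cells, so its direction depends on the probe set. VWA8, a mitochondrial ATPase, read at most 5.30 at E3 and 13.88 and 13.61 at E5, and MPP4, a scaffold protein known from photoreceptors, at most 6.13 against 12.93 and 13.84.

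In the opposite direction, the genes detected in all 6 E3 cells and in neither cycling E5 cell were led, by width of gap, by UBE2D3. UBE2D3, a ubiquitin-conjugating enzyme, read 13.56, 15.84, 14.89, 16.21, 14.44 and 14.12 in E3 replicates 1 to 6 and 5.0 in both E5 cells. The 3 other E5 cells read 16.26, 16.11 and 14.34, and the gene was detected in 8 of 10 E6 cells. Its other 4 probe sets were not called, and 1 of them read 11.98 in E5 replicate 4.

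MRPS7, a protein of the small mitochondrial ribosomal subunit, read 12.91 to 15.94 at E3, and PAXBP1, a protein that binds PAX factors, 12.60 to 14.22, with 5.0 in both cycling E5 cells for each. A further PAXBP1 probe set was called with 11.31 to 12.71 at E3. SNX4, an endosomal sorting nexin, read 10.85 to 15.12, and GTF3C1, a subunit of the RNA polymerase III factor TFIIIC, 9.51 to 14.06, against 5.0 in both. Each of these 4 was detected in 2 of the 3 other E5 cells. They were thus low in the cycling pair and not in all cells of that age.

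MCMBP, a partner of the replicative helicase, behaved otherwise. It read 13.93, 12.04, 9.63, 16.33, 13.81 and 11.94 in E3 replicates 1 to 6, 5.33 and 5.0 in the cycling E5 cells, and 5.0 to 6.07 in the 3 other E5 cells. It was detected in 2 of 3 E4 cells, in the E7 cell and in 6 of 10 E6 cells.

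PFKP, a phosphofructokinase of glycolysis, read 14.05, 13.69, 12.72, 14.92, 8.78 and 12.27 at E3 and 5.65 and 5.0 in the cycling E5 cells, and 14.01 to 15.90 in the 3 others. The complex I subunits NDUFB2 and NDUFA6 were at the floor in both cycling E5 cells. NDUFB2 read 7.24, 13.37, 12.06, 13.93, 12.35 and 9.24 at E3, and NDUFA6 read 13.42, 6.65, 12.66, 13.93, 12.56 and 13.56. Their calls rest on the lowest E3 cell, at 7.24 in replicate 1 and 6.65 in replicate 2. NDUFB1, of the same complex, read 13.73 to 15.95 at E3 and 11.94 and 5.05 at E5.

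Of 75 mitochondrial respiration genes, 3 were higher in E3 and 0 in the cycling E5 cells, with a median difference of -0.68. Over all named genes the shares called were 0.407% and 0.53% and the median was -0.31. The median of the respiration list kept its sign in each setting tried (-0.88 to -0.23). The median of all chicken probe sets was also at most 0 under each change of floor, scaling or cells, and -0.69 with no floor. The sign alone thus does not set this list apart. Ribosomal protein genes had 0 of 66 called and a median of -0.85, which became 0.03 after quantile normalization and -0.11 after scaling to a common 75th percentile. RPL36, the ribosomal gene with the highest mean, read 15.47 to 17.51 at E3 and 15.65 and 15.23 at E5. Housekeeping genes (1 of 23 called, PFKP) had a median of -0.76, and 0.12 after quantile normalization. Proteasome genes had 0 of 26 called and a median of -0.69, with -0.10 after quantile normalization, and PSMC2 read 14.91 to 16.12 at E3 and 14.95 and 14.67 at E5.

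ATP6V1B2, a subunit of the vacuolar proton pump, read 8.97 to 15.26 at E3 and 5.0 in both cycling E5 cells. VPS33A, of lysosomal fusion, AP2A2, of clathrin coats, and GET4, of membrane protein insertion, each had their lowest E3 value in replicate 4 (7.60, 7.46 and 7.62) and at least 10.24 in the other 5. The background of that array, from the other sequence records, was 7.62, so VPS33A and AP2A2 lay under it there and GET4 was level with it. DAZAP1, an RNA-binding protein, had its lowest in replicate 5 (7.86), and RTFDC1, a protein of replication termination, in replicate 1 (7.31). In the cycling E5 cells these 5 lay at or under 5.52. SNRPD2, a core protein of spliceosomal snRNPs, was called at a low level, 6.86 to 8.45 at E3 and 5.0 and 5.73 at E5, as was SLC12A5, a potassium and chloride cotransporter, with 7.01 to 7.86 and 5.88 and 5.43. The calls of SNRPD2, SLC12A5 and AP2A2 ended after quantile normalization and after scaling to a common 75th percentile, and that of RTFDC1 after quantile normalization. With the floor at the highest background GET4, VPS33A, DAZAP1, AP2A2, NDUFB2, RTFDC1, NDUFA6, SNRPD2 and SLC12A5 were no longer called.

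**Figure D4:**
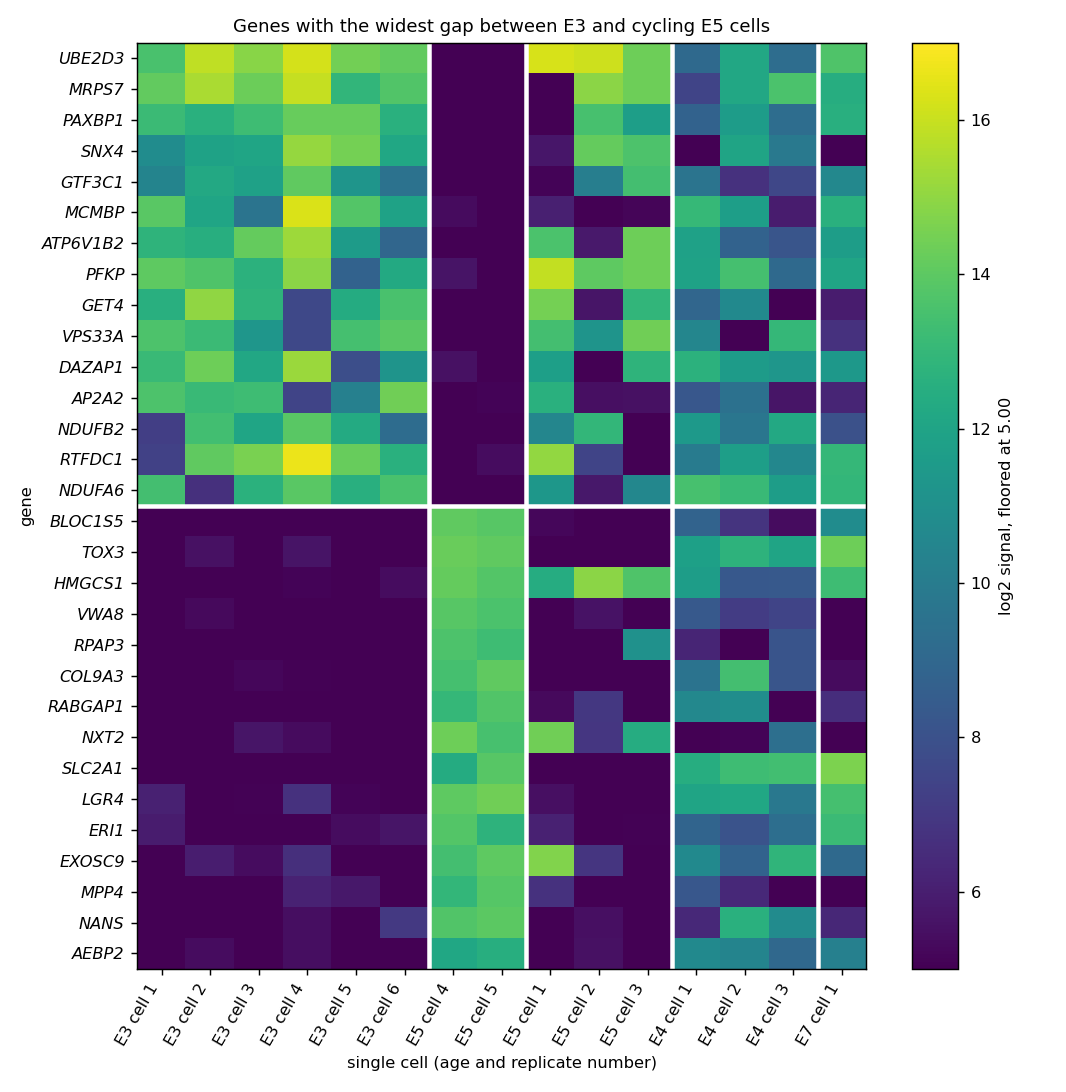
Log2 signal, floored at 5.0, of the 15 genes with the widest gap in each direction (rows) in the 8 cells compared and in the 3 other E5, 3 E4 and 1 E7 cells (columns). Genes higher in E3 (upper block) are mostly present again in the 3 other E5 cells. In the lower block BLOC1S5, TOX3, SLC2A1, COL9A3, LGR4, VWA8, NANS and AEBP2 are at or under 5.58 in those 3 cells. There RABGAP1, ERI1 and MPP4 read at most 6.94. HMGCS1 is high in all 3 of them (12.43 to 14.93), and NXT2, EXOSC9 and RPAP3 reach 14.41, 14.74 and 11.07. The 2 blocks are not set against each other.

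The next genes were not called and were chosen after their values were seen, except SPARC. TFRC, the transferrin receptor that brings iron into growing cells, read 12.56, 13.85, 13.58, 14.75, 9.14 and 16.42 in E3 replicates 1 to 6 and 5.48 and 9.24 in the cycling E5 cells, an overlap of 0.09. SPARC, a secreted matrix glycoprotein, read 13.53 to 16.41 in 5 E3 cells and 5.0 in replicate 6, against 7.04 and 5.0. Its other 2 probe sets read 11.31 and 12.47 and 12.13 and 14.23 in the COL1A1-rich E3 replicates 1 and 5, and at most 5.77 and 8.26 in the other 6 cells. SLC25A4, a mitochondrial ADP and ATP carrier, read 12.27 to 14.84 in 5 E3 cells and 5.0 in replicate 2, and was at the floor in both E5 cells. Its paralog SLC25A6 read 15.27 to 17.18 at E3 and 15.52 and 15.04 at E5 by the probe set of highest mean.

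Of 26 gene lists, which hold 876 genes with a probe set, 6 genes were called higher in E3 (0.685%) and 6 higher in the cycling E5 cells (0.685%). These shares stand beside 0.407% and 0.53% over all named genes. In the list of retinal progenitor and eye field genes 2 of 40 were called, HES5 and TOX3, both toward E5, with a median difference of -0.07. RNA binding and splicing had 1 of 42 called in each direction, SNRPD2 toward E3 and HNRNPU, a nuclear matrix RNA-binding protein, toward E5. HNRNPU read 12.51 in E3 replicate 1, 5.0 to 6.14 in the other 5 and 13.86 and 14.43 at E5, and a further probe set of the gene was called with 5.0 to 5.61 at E3 and 12.98 and 13.11 at E5.

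In 19 lists no gene was called. DNA replication (45 genes, median -0.34) and mitosis (68 genes, median 1.04) belong to the choice of the E5 cells and are given as a description: RPA2, of the single-strand binding complex, read 13.29 to 15.68 and 14.04 and 14.20, and RRM1, of ribonucleotide reductase, 13.68 to 16.05 and 14.21 and 14.08. The mitosis median became 0.10 without E3 replicate 5, the E3 cell with the fewest cell cycle genes detected. The heterochronic and early growth list (28 genes) had IGF2BP3, an RNA-binding protein of embryonic cells, at 14.17 to 16.57 and 14.54 and 14.61, and MYCN, a transcription factor of growing progenitors, at 5.0 to 15.20 and 5.0 and 10.72. Both overlapped. Chromatin and high mobility group genes (46) included NASP, a histone chaperone, at 14.63 to 16.59 and 15.48 and 14.95, and HMGN4, a nucleosome binding protein, at 14.75 to 16.82 and 15.16 and 14.85.

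The neurogenic and Notch list (34 genes), ganglion cell and early neuron list (38), amacrine and horizontal list (17), photoreceptor and bipolar list (18) and FGF, Wnt and Hedgehog list (62) had medians of -0.28 to -0.17. The lists of extracellular matrix (70), optic stalk, pigment epithelium and ciliary margin (24), lens (17), microglia (11), vascular and mesenchymal (21) and dissociation stress genes (25) had medians of -0.34 to -0.24. These medians lie near the -0.31 of all named genes. The erythroid list had the median farthest from it, -3.99 over 8 genes with 0 called, and -0.53 without the globin-rich E3 replicates 4 and 6.

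DCX, a microtubule protein of migrating neurons, shows how the E3 cells were split. It read 15.64, 15.08 and 16.98 in E3 replicates 2, 3 and 4 and 5.0 in replicates 1, 5 and 6, against 14.72 and 14.85 in the cycling E5 cells. VIM, vimentin, was at 14.84 to 16.70 in 5 E3 cells, 5.0 in replicate 6, and 15.06 and 14.90 at E5.

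The calls were then looked up in cells that took no part in them. Of the 131 probe sets higher in the cycling E5 cells, 42.7 to 58.0% were detected in the E4 cells, 60.3% in the E7 cell and 28.2 to 35.1% in the 3 other E5 cells. Of the 85 higher in E3 the shares were 57.6 to 72.9%, 72.9% and 55.3 to 56.5%. Over all chicken probe sets the share is 20% on every array by the definition of detection. Called probe sets had to be higher in 6 or in 2 cells, so shares above 20% follow from the choice, and the shares of the 2 sets are not set against each other.

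Of the 131 E5-higher probe sets, 57 (43.5%) were detected in none of the 3 other E5 cells. Of the 85 E3-higher ones it was 12 (14.1%), and of all chicken probe sets 61.4%. Detection in all E4 cells and the E7 cell together with absence from the 3 other E5 cells was found for 12 of the 131 (9.16%), 2 of the 85 (2.35%) and 1.20% of all. Whatever the other E5 cells read, 18.3% of the 131, 32.9% of the 85 and 5.42% of all were detected in the E4 and E7 cells. Called probe sets were chosen as high, so a joint share above 1.20% can follow from the choice. The E4 arrays had medians of 6.84 to 7.55 against 3.94 to 5.44 on the 8 arrays compared, so their levels are not set against each other here. Among the named genes called toward E5, TOX3, SLC2A1, LGR4, AEBP2 and CA2 were detected in all E4 and E7 cells and in no other E5 cell. In E4 replicate 3, AEBP2 read 9.07, just past the detection threshold of 9.04 and under the background of 9.38 on that array. Of the 10 E6 cells, SLC2A1 was detected in 6, TOX3 in 4, LGR4 and AEBP2 in 3 each and CA2 in 0. In at least 5 of the 10 E6 cells 60 of the 131 probe sets (45.8%) were detected. For the 85 higher in E3 it was 54 (63.5%), and for all chicken probe sets 15.8%.

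**Figure D5:**
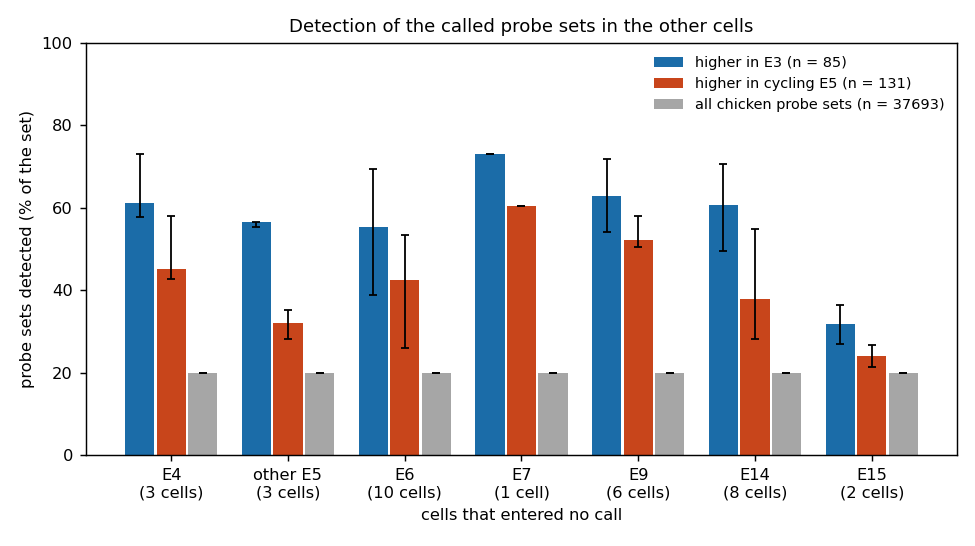
Share of the probe sets called higher in E3 (blue, n = 85), called higher in cycling E5 (red, n = 131) and of all chicken probe sets (grey) that were detected in cells that entered no call. Bars give the median over cells and lines the lowest and highest cell. In the 3 other E5 cells the shares are 55.3 to 56.5% for E3-higher and 28.2 to 35.1% for E5-higher probe sets.

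Several probe sets of a gene often disagreed. Of 18 genes named as called higher in E3, 13 had more than 1 probe set and 1 of these, PAXBP1, had another called the same way. Of 19 called higher in the cycling E5 cells, 10 had more than 1 and 4 had another called, which were TOX3, AEBP2, NANS and HNRNPU. The positions of probe sets along the transcripts were not used here. UBE2D3, GTF3C1, MCMBP, PFKP, GET4, BLOC1S5, HMGCS1, RPAP3, RABGAP1, ERI1, AEBP2 and ALDH1A3 were called from probe sets whose type allows matches to other transcripts, and without such probe sets these calls were lost. The further AEBP2 probe set that was called, with 5.0 to 5.44 at E3 and 11.94 and 12.76 at E5, is not of that type. The calls nearest to the gap of 1 log2 unit were PSMG3 (1.0045) inside and SLC12A4 (0.9991) outside toward E3, and ANKRD13C (1.03) inside and ABHD17C (0.95) outside toward E5.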

How the data were processed

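RNA of single cells from dissociated chick retinas was reverse transcribed from the poly(A) tail, tailed, amplified by PCR and put on Affymetrix chicken arrays, per the labels' protocols. Each of the 38535 probe sets has 1 deposited log2 value in each of the 41 cells, and no sample column was left unused. The submitters' processing notes name MAS5 as the software behind these values, with no version. The linear signals of the 8 arrays share a trimmed mean of 500, with 2% taken off each end, and no further scaling was applied. Of the probe sets, 37693 are chicken probe sets and entered the comparison. The 96 control, 57 reporter and 689 other sequence records did not.

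Genes were named through the platform annotation: 27178 probe sets had 1 symbol, 177 several and 11180 none. Of the first, 26863 matched RefSeq genes by gene ID and 0 symbols were updated. A gene was read from its probe set of highest mean over the 41 cells. Values were floored at the median of the table (log2 5.0). A call needed a gap of at least 1 log2 unit between the nearest cells of the 2 sides. Detection used the 80th percentile of each array, and background is the 95th percentile of the other sequence records. The text names the 15 genes of widest gap in each direction that also passed the detection rule and carry 1 symbol, up to 6 called genes a list and direction or, with none called, up to 3 of highest mean, and the markers of cell types. Others are named as chosen after their values were seen.

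The cells, markers and lists were chosen with earlier results of these data known. Alternatives changed the floor, the scaling, the gap, the detection threshold, the probe sets and the cells. The rule for calls was checked only for its coding, on simulated data with planted gaps. Arrays give no counts, so the number of cells limits the precision. Python 3.11.15, numpy 2.4.6, pandas 2.3.3 and matplotlib 3.10.9 were used. No comparison has a test, since each age is 1 sample.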

Additional observations from a re-analysis of the deposited data

Results flagged for a closer look

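The series of 6 E3 values examined were 4 array measures and most, not all, of the genes named in the text. In 24 of these 82 series 1 cell lay farther from the nearest of the others, relative to the whole range, than Dixon's critical value for 6 values. Chance passes that limit in about 1 of 20 series of continuous values, but these values are floored, and 10 of the 24 series have at least 4 cells at the floor, where nearly any value above it passes, so the number of series says nothing against chance. Replicate 3 stood apart in the neuronal genes NEFM (14.48) and ELAVL4 (13.03), in the neurogenic marker HES6 (12.96) and in CRYAB (14.96). Replicate 5 was low in the cyclins CCNB1 (5.0) and CCNA2 (5.93). The globin-rich replicate 6 was low in NES (11.08), VIM (5.0) and SPARC (5.0), with SLC4A1 at 11.38. The other globin-rich cell, replicate 4, had CCND1 at 15.99, HMGN4 at 16.82, NDUFB1 at 15.95, PDGFRA at 7.16 and a low GET4 (7.62). That array had the highest background (7.62) and the highest median (5.44) of the 8 compared. PDGFRA lay under that background and GET4 was level with it. The part of the array level in the high values was not tested. Replicate 2 was low in NDUFA6 (6.65) and SLC25A4 (5.0), and replicate 1 was high in HNRNPU (12.51). Small values above the floor were HMGCS1 in replicate 6 (5.41), NANS in replicate 6 (6.99), VWA8 in replicate 2 (5.30), COL9A3 in replicate 3 (5.23), ALDH1A3 in replicate 4 (5.36) and STMN2 in replicate 1 (5.67). The part of globin transcripts in these values was not tested.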

How the results depend on the processing

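The counts of 85 probe sets higher in E3 and 131 higher in the cycling E5 cells depended on the rule. The E3 count was 749 with no floor, 35 with the floor at the highest background, 54 at a common 75th percentile, 616 with any gap above 0, 36 with a gap of 2 or more, 47 and 23 by detection at the 80th and 90th percentile, and 53 with 1 probe set a gene. The E5 count was 201 at a common 75th percentile, 324 with any gap, 221 by detection at the 70th percentile and 69 with 1 probe set a gene. Leaving out 1 cell at a time gave 114 to 252 toward E3 and 158 to 835 toward E5, the highest without E5 replicate 5 (252 and 835) and nearly as high without E5 replicate 4 (234 and 782). Chosen after seeing the data, leaving out E3 replicates 4 and 6 gave 192 and 213, replicates 1 and 5 gave 359 and 223, replicates 4, 5 and 6 gave 468 and 268, and replicates 2 and 3 alone gave 941 and 451. A smaller set of cells can only add calls, by construction of the rule. Of the differences of 37 named genes, 454 values under the alternatives moved by less than the spread of the E3 cells. The other 138 did not, and 0 changed sign. BLOC1S5, RPAP3, RABGAP1 and SLC2A1 had a spread of 0 at E3, so all their values count among the 138. Leaving out cells cannot turn the sign of a called gene, by construction of the rule. Without probe sets that can cross-hybridise, UBE2D3, GTF3C1, MCMBP, PFKP, GET4, BLOC1S5, HMGCS1, RPAP3, RABGAP1, ERI1, AEBP2 and ALDH1A3 had no call. By detection at the 80th percentile HES5, CA2, SNRPD2, HNRNPU, SLC12A5 and NDUFB1 had none. Of the list medians, 405 values moved less than the spread of the E3 cells and 37 moved more. No paired analysis was possible because the results come from no test and the replicate numbers only name cells. The number of cells and the background of each array limit what can be seen.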
